A study of Homo sapiens with 16 samples.

Results

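WNT2B, a secreted WNT ligand, fell in human pancreatic progenitor cells within 3 h of actin depolymerization, to 40.3% of the untreated level, and its mean was lower at each later time measured. The genes described here are WNT2B and 8 other WNT ligand genes: WNT3, WNT4, WNT5A, WNT5B, WNT7A, WNT7B, WNT10A and WNT11. They are 9 of the 19 human WNT ligand genes and of 35810 genes in the series. The list was drawn up by name and was chosen by the fall of WNT2B in the 24 h comparison. The 24 h values of all 9 are therefore given as a description, with no test and no count of calls. Earlier results of these data were known when the choice was made. The p-values of WNT2B at the earlier times are thus no independent test of its fall. Of the 9 genes, 7 passed the filter on low counts, and WNT7A and WNT10A did not.

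WNT ligands are lipid-modified proteins that cells secrete over short distances. They bind Frizzled receptors together with LRP5 or LRP6, which stops the breakdown of beta-catenin and lets it act with TCF/LEF factors in the nucleus. Other ligands, with WNT5A and WNT11 the usual examples, act mainly through ROR receptors and the planar cell polarity branch, which organizes the actin cytoskeleton. In the developing pancreas, WNT signals come from mesenchyme and from the epithelium itself, and their dose and timing shape growth of the progenitor pool.

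The cells came from 1 human embryonic stem cell line, SA121 with an NGN3-GFP reporter, differentiated in culture to pancreatic progenitors, and every group carried this reporter. Latrunculin B (LatB), which binds actin monomers and depolymerizes filaments, was added at 0.5 µM on day 19. Control 0 h, LatB 3 h, LatB 6 h and LatB 24 h had 3 libraries each. Control 24 h, which received DMSO as the vehicle, and LatB 12 h had 2 each. Control 0 h carries a DMSO tag in the labels, whereas the series text places its harvest before any treatment. Nothing states that replicates came from separate cultures, so the p-values measure only the spread between these libraries, which may be technical.

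WNT2B (ENSG00000134245.18) lies on the plus strand of chromosome 1, at 112466541 to 112530165 in GRCh38, and its transcripts begin at separate start sites. The 250 bases upstream of 2 of these starts are printed because the transcripts that begin there, WNT2B-201 and WNT2B-202, had the highest estimated levels in the controls among those with a coding sequence. WNT2B-201 begins at the outer start, and the window before it is chr1:112466291-112466540. WNT2B-202 begins inside the gene, and its window, chr1:112508715-112508964, lies in a WNT2B intron and overlaps no exon. Both windows were read from hg38 (GRCh38) on the plus strand, 5′ to 3′, with each CG step in capitals.
WNT2B-201 upstream: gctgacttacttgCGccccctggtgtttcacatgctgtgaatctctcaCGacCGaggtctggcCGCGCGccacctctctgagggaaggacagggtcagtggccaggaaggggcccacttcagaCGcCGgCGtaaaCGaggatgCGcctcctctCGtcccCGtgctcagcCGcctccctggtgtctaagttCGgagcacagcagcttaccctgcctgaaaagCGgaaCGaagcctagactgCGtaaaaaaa
WNT2B-202 upstream: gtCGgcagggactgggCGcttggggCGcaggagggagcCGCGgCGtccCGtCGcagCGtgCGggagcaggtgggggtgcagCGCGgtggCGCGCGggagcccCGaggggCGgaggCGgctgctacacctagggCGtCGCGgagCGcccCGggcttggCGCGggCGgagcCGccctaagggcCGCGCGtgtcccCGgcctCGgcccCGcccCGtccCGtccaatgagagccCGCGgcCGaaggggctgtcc
The WNT2B-201 window had a GC content of 60.4% with 18 CG steps. The WNT2B-202 window was richer, at 80.0% with 38 CG steps.

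The 16 libraries held 23609727 to 33515398 estimated reads. LatB 12 h replicate 2 stood apart: its log2 expression correlated with replicate 1 at r = 0.967 across genes, against 0.98 to 0.986 for replicate pairs in the other groups. Its summed TPM (transcript abundance corrected for transcript length) of 10 mesenchymal cell markers was 436, against 61.0 to 132 in the other 15 libraries. The sums of mesothelial (12.9 against 3.37 in replicate 1), endothelial (12.4 against 3.36) and hepatocyte-like markers (3560 against 1280) were also higher in it. In the 12 h group KDR reached 11.1 TPM, while PECAM1, CDH5, TEK and EMCN reached at most 0.512 TPM. LRRN4 reached 8.63 TPM, KRT7 was next at 2.39 TPM, and UPK3B was at 0. The endothelial and mesothelial sums thus rest mainly on KDR and LRRN4. Of the mesenchymal markers, COL3A1 reached 207, LUM 116, COL1A2 62.3, COL1A1 20.7, DCN 12.5, TWIST1 6.47 and PDGFRB 3.83 TPM in the 12 h group. PDGFRA, PRRX1 and FOXF1 stayed within the range of the other groups. Of the hepatocyte-like markers, TTR reached 1410, APOA1 1180 and SERPINA1 915 TPM, against 52.5 TPM for AFP and 2.66 TPM for ALB. Results at 12 h are given without this library as well where that changed a call or moved a value by over 1.5 times. The part of these markers in the results was not tested beyond that. Of 8 pancreatic progenitor markers, which check the labelled cell type, 7 had 10 reads or more in every library. The summed TPM of the 8 ran from 1280 to 2410. Most of it was GP2, at 882 to 2000 TPM, so the sum says little of the other markers. PTF1A stayed at or under 0.927 TPM.

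Before treatment, WNT5B and WNT2B were the most abundant of the 9 transcripts per length. In control 0 h the mean was 7.95 TPM for WNT5B and 6.84 TPM for WNT2B, with overlapping ranges. WNT4 followed at 3.37 TPM, below WNT2B in every library. WNT11 (2.22), WNT5A (2.21), WNT7B (1.88) and WNT3 (1.72 TPM) came next, each overlapping its neighbor in the order. WNT10A at 0.11 TPM and WNT7A at 0.0246 TPM were close to absent.

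The order changed with time and treatment. In control 24 h WNT2B was first at 9.54 TPM and lay above WNT5B, at 7.2 TPM, in both libraries. In LatB 24 h WNT5B was first at 4.97 TPM, and WNT2B was 7th of 9 at 0.687 TPM, with a range of 0.475 to 0.918. In the latter group WNT2B still lay above WNT7A and WNT10A in all libraries. It was below WNT3 in the libraries where WNT3 was not listed at 0.

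**Figure D1:**
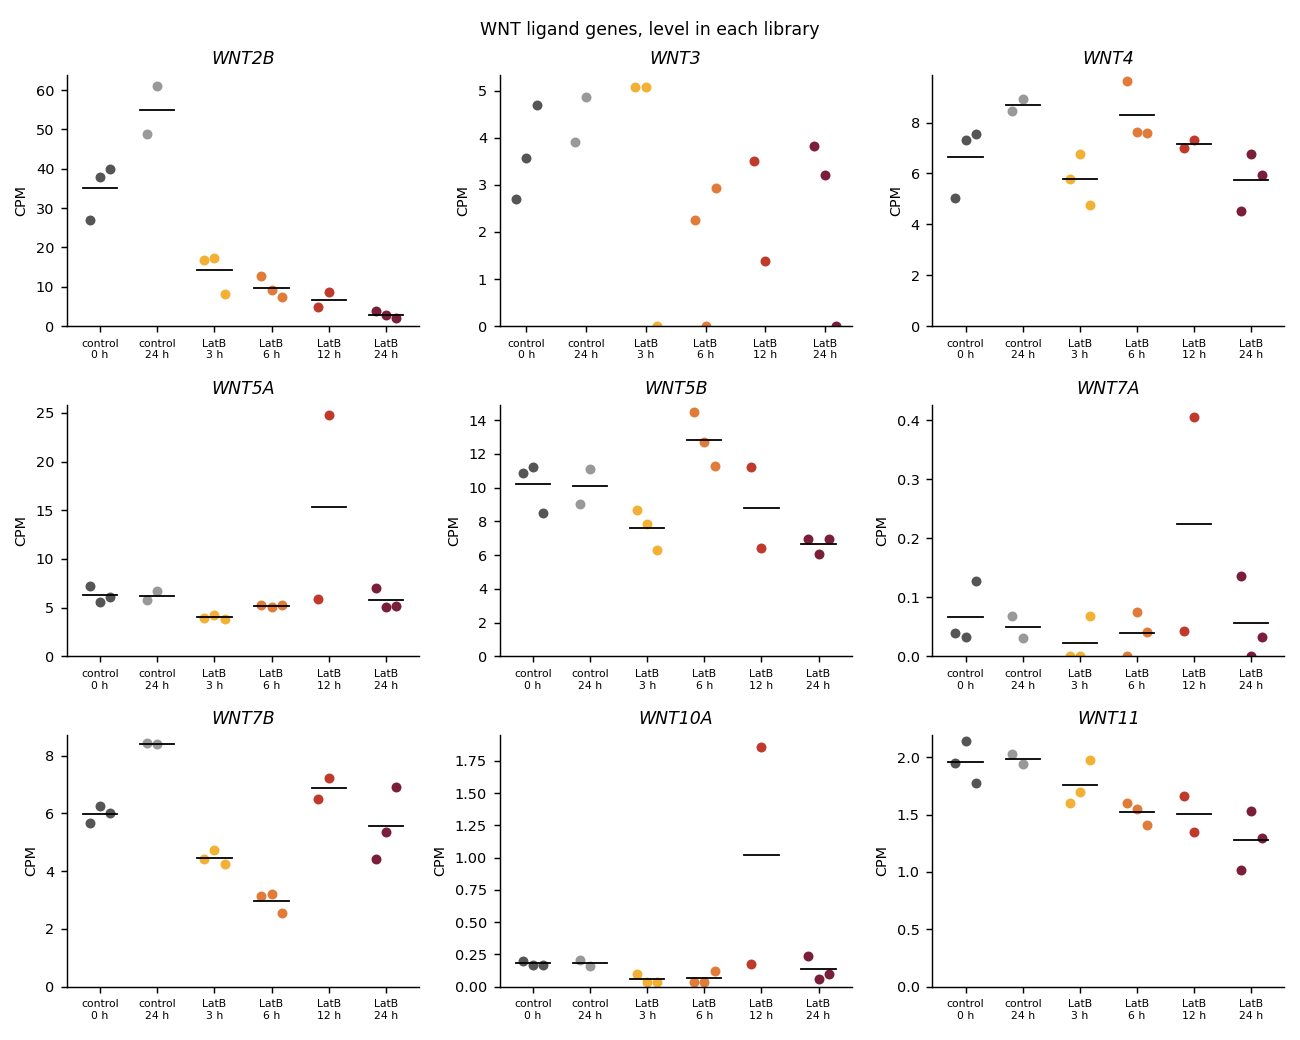
Level of each WNT ligand gene in every library as CPM, the gene's reads scaled to library size, on a linear axis, with 1 point per library, grouped by control or LatB and by time, and the group mean as a bar except for WNT3. WNT2B falls from 27.1 to 61.0 CPM in the 5 control libraries to 2.10 to 3.80 CPM in LatB 24 h, and the highest points of WNT5A, WNT10A and WNT7A belong to LatB 12 h replicate 2.

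The first question was which WNT ligand genes responded in the first hours, as the design compares LatB at 3, 6 and 12 h with control 0 h. These 3 comparisons share their control libraries, and vehicle alone for 3, 6 or 12 h was not analysed here. As the list was chosen by the fall of WNT2B, the calls of WNT2B in the counts here and below say nothing about the list. At 3 h, 0 of the 7 tested genes rose and 2 fell, WNT2B and WNT7B, where 31.6% of all genes tested were called (edgeR, adjusted p under 0.05). At 6 h the same 2 genes fell and 0 rose, against 43.3% of all genes. At 12 h 1 gene rose (WNT5A) and 1 fell (WNT2B), against 35.8%. The counts of 7 genes here and below take WNT3 as deposited, which was not called. Its reads summed with those of another transcript were lower at 6 and 12 h, as given with that gene. Leaving aside WNT3, whose reads are divided with another transcript as described with that gene, the median log2 fold change of the other 6 was -0.42 at 3 h and -0.32 at 6 h. At 12 h it was -0.055, and -0.0066 without LatB 12 h replicate 2. That of all genes tested was close to 0 (0.0021, -0.01 and 0.011). Library values in CPM of the 2 compared groups did not overlap for 48.3% of all genes tested at 3 h, 57.5% at 6 h and 51.4% at 12 h. At 24 h, against control 24 h, that share was 63.9%. Groups without overlap, as given below for single genes, were therefore common.

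**Figure D2:**
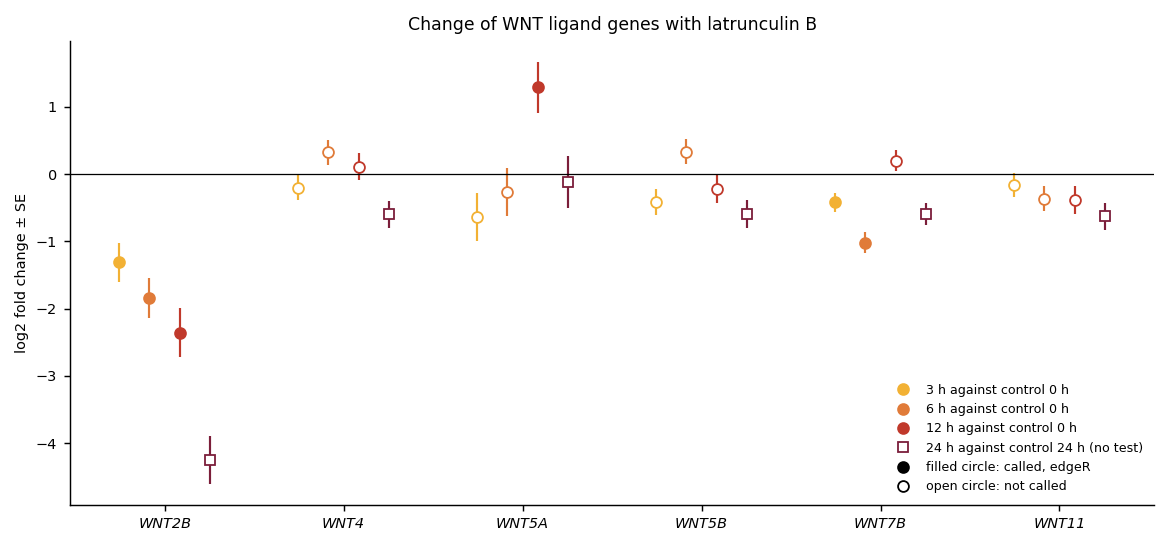
Log2 fold change with its standard error for the tested WNT ligand genes other than WNT3 at 3, 6 and 12 h of LatB against control 0 h and at 24 h against control 24 h, 1 point per gene and time, filled where called by edgeR at 3, 6 or 12 h and square at 24 h. WNT2B lies at -1.31, -1.84, -2.36 and -4.25, and the other genes stay within 1.3 of 0 at all 4 times.

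The control groups and the successive LatB times were compared in the same fit. Between control 24 h and control 0 h, 0 of the 7 genes were called, as were 0.251% of all genes, and 1 of the 7 (WNT7B) had an unadjusted p under 0.05. Between LatB 6 h and 3 h, 1 gene rose (WNT5B) and 1 fell (WNT7B), against 22.2% of all genes. From 6 to 12 h, 2 genes rose (WNT5A and WNT7B), against 29.0%. Groups did not overlap for 28.8% of all genes between the controls, 43.8% between 6 and 3 h and 47.9% between 12 and 6 h.

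WNT2B has been studied as a signal from mesenchyme and epithelium that maintains stem and progenitor cells, and it had the most negative log2 fold change of the 6 tested genes other than WNT3 at each time. The 3 libraries of control 0 h held 27.1, 38.0 and 40.0 CPM, and the 2 of control 24 h held 48.8 and 61.0 CPM. With LatB, the values were 16.9, 17.3 and 8.25 CPM at 3 h and 12.7, 9.21 and 7.31 CPM at 6 h. At 12 h they were 4.86 and 8.59 CPM, and at 24 h 3.80, 2.75 and 2.10 CPM. Every LatB library was therefore below every control library, and every 24 h library was below every library of the earlier LatB times.

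The log2 fold change of WNT2B was -1.31 at 3 h (SE 0.291, adjusted p = 0.00375 by edgeR's quasi-likelihood test with Benjamini-Hochberg adjustment), a level of 40.3% of control 0 h. At 6 h it was -1.84 (SE 0.30, edgeR adjusted p = 0.000268), or 27.9%. It reached -2.36 at 12 h (SE 0.361, edgeR adjusted p = 0.000252), or 19.5%, and -2.85 (SE 0.478, adjusted p = 0.000673) with LatB 12 h replicate 2 left out. The steps between successive LatB times did not pass the test, with -0.54 from 3 to 6 h (SE 0.302, adjusted p = 0.232) and -0.52 from 6 to 12 h (SE 0.358, adjusted p = 0.309), or -1.01 (adjusted p = 0.174) without LatB 12 h replicate 2. Control 24 h differed from control 0 h by 0.65 (SE 0.307, edgeR adjusted p = 0.603), so no change with time in culture was detectable at this n, although both control 24 h libraries lay above all 3 of control 0 h. In bulk RNA, fewer cells that express a gene and less RNA per cell cannot be told apart. The summed TPM of 6 endocrine progenitor markers was 18.2 to 24.6 in control 0 h, 38.5 to 45.9 in control 24 h and 66.1 to 178 in LatB 24 h. Of 3 pluripotent stem cell markers, LIN28A was at 171 to 190 TPM in the controls and 82.9 to 121 TPM with LatB, whereas POU5F1 (0.828 to 2.02 TPM) and NANOG (0.0827 to 0.265 TPM) were near the floor in all groups. The part of these genes in the fall of WNT2B was not tested.

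At 24 h, the comparison on which the list was selected, WNT2B stood at 5.26% of control 24 h, a log2 fold change of -4.25 (SE 0.354). Against control 0 h in place of control 24 h the value was -3.60. It rests on 63.1 reads in the library with the fewest and 1950 in that with the most.

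The estimated TPM of WNT2B-202 and WNT2B-201 were lower with LatB to unequal extents, and that of WNT2B-203 was not lower at every time. WNT2B-202, of 11130 bases and the more abundant one in controls, was listed at 3.33, 4.67 and 5.16 TPM in control 0 h and at 6.19 and 8.21 TPM in control 24 h. With LatB it was listed at 1.58, 1.69 and 0.43 TPM at 3 h, at 1.44, 1.02 and 0.518 TPM at 6 h, and at 0.499 and 1.07 TPM at 12 h. At 24 h the 3 libraries were listed at 0.0586, 0 and 0.227 TPM. The mean of WNT2B-202 was thus 28.1% of control 0 h at 3 h, 22.6% at 6 h and 17.9% at 12 h, and 1.32% of control 24 h at 24 h.

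WNT2B-203, of 10879 bases, begins at 112467434, near the outer start, and ends at the same base as WNT2B-202. It was listed at 0.117, 0.223 and 0 TPM in control 0 h and at 0.205 and 0 TPM in control 24 h. With LatB it was listed at 0.408, 0.38 and 0.384 TPM at 3 h and at 0, 0 and 0.293 TPM at 6 h. Both 12 h libraries were listed at 0, and those of 24 h at 0.374, 0.304 and 0 TPM. Its mean was 345% of control 0 h at 3 h and 220% of control 24 h at 24 h, and at 24 h it was at 0 in the library where WNT2B-202 was highest.

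Summed, WNT2B-202 and WNT2B-203 stood at 36.1% of control 0 h at 3 h, 24.2% at 6 h and 17.4% at 12 h, where replicate 1 alone was at 11.1%. The sum was at 4.4% of control 24 h at 24 h, with 0.433, 0.304 and 0.227 TPM against 6.4 and 8.21 TPM. The sum was chosen after the values were seen. WNT2B-204, a transcript of 621 bases with no coding sequence, was listed at 0 in all 6 h and 24 h LatB libraries and at 0 to 1.92 TPM in the controls.

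WNT2B-201, the transcript of 2819 bases from the outer start, was lower by a smaller share, and all 3 h libraries were already below all control libraries. It was listed at 1.12, 1.31 and 1.38 TPM in control 0 h and at 1.3 and 1.28 TPM in control 24 h. With LatB it was listed at 0.995, 0.949 and 1.08 TPM at 3 h, 0.977, 0.705 and 0.609 TPM at 6 h, 0.582 and 0.737 TPM at 12 h, and 0.486, 0.363 and 0.248 TPM at 24 h. Its mean was 79.4%, 60.1% and 51.9% of control 0 h at 3, 6 and 12 h, and 28.3% of control 24 h at 24 h. WNT2B-201 made up 13.5 to 21.2% of the gene's TPM in the control libraries and 28.9 to 54.4% in those with LatB, so the shares did not overlap. These are estimates that divide shared reads between transcripts, and they were not tested.

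**Figure D3:**
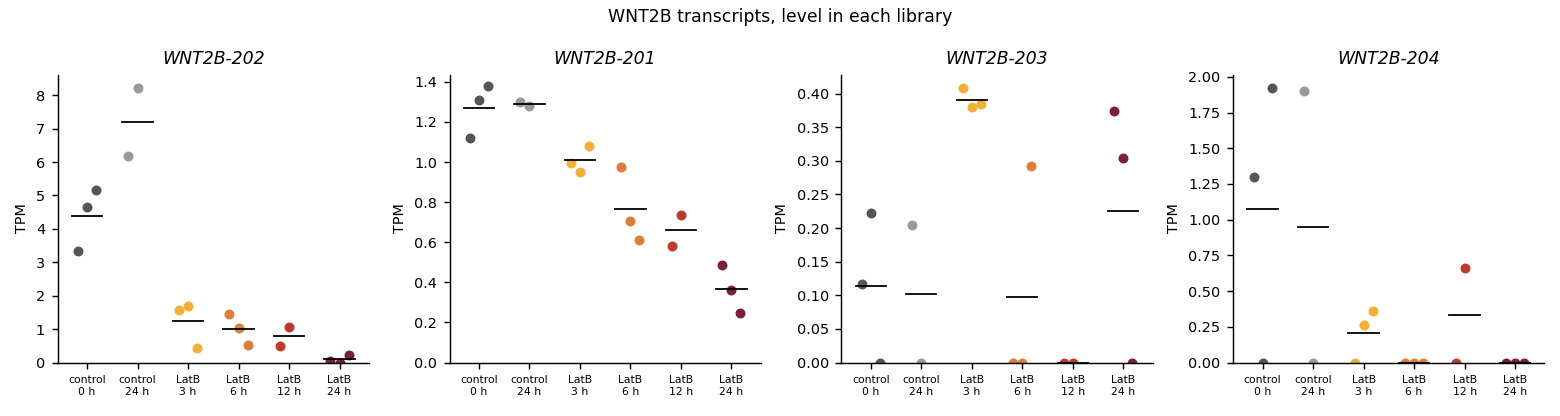
TPM of the 4 WNT2B transcripts in each library, with 1 point per library and a bar for the group mean, by group. WNT2B-202 drops from between 3.33 and 8.21 TPM in controls to at most 0.227 TPM in LatB 24 h, WNT2B-201 drops from between 1.12 and 1.38 TPM to between 0.248 and 0.486 TPM, and WNT2B-203 stays at or under 0.408 TPM in every library.

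Part of WNT2B-202 is shared with a gene on the other strand. ST7L exons cover 2665 of its bases (23.9%), the same number in WNT2B-203 and none of WNT2B-201, and whether strand was used in counting is not stated. ST7L itself ran at 18.5 to 24.5 TPM across the libraries and was not called at 3 h (log2 fold change 0.12, edgeR adjusted p = 0.155) or at 6 h (0.14, edgeR adjusted p = 0.0643). Reads of the 2 genes in the shared bases cannot be told apart without strand.

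WNT7B (ENSG00000188064.10, chromosome 22, 45920366 to 45977162, minus strand), an epithelial ligand that acts on neighboring mesenchyme in several organs, fell and then returned. The 3 libraries of control 0 h held 5.67, 6.24 and 6.02 CPM. LatB gave 4.40, 4.72 and 4.24 CPM at 3 h, 3.13, 3.2 and 2.54 CPM at 6 h, and 6.50 and 7.23 CPM at 12 h. All libraries of 3 and 6 h were below all of control 0 h, and both libraries of 12 h were above them. The log2 fold change was -0.42 at 3 h (SE 0.147, edgeR adjusted p = 0.0418), -1.02 at 6 h (SE 0.151, edgeR adjusted p = 0.000127) and 0.20 at 12 h (SE 0.161, edgeR adjusted p = 0.365), or 0.12 (edgeR adjusted p = 0.719) without LatB 12 h replicate 2. The call at 3 h was lost in 6 of 6 fits that dropped 1 of the compared libraries (control 0 h, LatB 3 h), with edgeR adjusted p from 0.053 to 0.107, and was kept when LatB 12 h replicate 2 was left out (edgeR adjusted p = 0.038).

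The fall of WNT7B between 3 and 6 h was itself past the threshold, at -0.60 (SE 0.151, edgeR adjusted p = 0.013), and so was the rise from 6 to 12 h, at 1.22 (SE 0.164, edgeR adjusted p = 0.00018). With LatB 12 h replicate 2 left out, the rise was 1.13 (SE 0.202, edgeR adjusted p = 0.00235). In control 24 h WNT7B held 8.42 and 8.40 CPM, above all control 0 h libraries, with a log2 difference of 0.49 (SE 0.159, edgeR adjusted p = 0.297). The 24 h LatB libraries held 4.43, 5.35 and 6.90 CPM, a log2 fold change of -0.60 (SE 0.158) against control 24 h.

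WNT5B (ENSG00000111186.13, chromosome 12, 1529891 to 1647212, plus strand), a ligand close in sequence to WNT5A, differed between the first 2 LatB times. Its libraries held 10.9, 11.2 and 8.48 CPM in control 0 h and 9.05 and 11.1 CPM in control 24 h. LatB gave 8.70, 7.87 and 6.30 CPM at 3 h and 14.5, 12.7 and 11.3 CPM at 6 h. Neither time passed the test against control 0 h, with -0.42 at 3 h (SE 0.191, edgeR adjusted p = 0.113) and 0.33 at 6 h (SE 0.189, edgeR adjusted p = 0.177). The difference between 6 and 3 h did pass, at 0.75 (SE 0.19, edgeR adjusted p = 0.0126), with every 6 h library above every 3 h library.

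At 12 h the 2 LatB libraries of WNT5B parted, with 11.2 and 6.43 CPM, and at 24 h they held 6.93, 6.08 and 6.95 CPM. All 24 h LatB libraries were thus below both control 24 h libraries, a log2 fold change of -0.60 (SE 0.211). With LatB 12 h replicate 2 left out of the fit, the fall of WNT5B at 3 h was past the threshold (-0.42, SE 0.146, edgeR adjusted p = 0.0383).

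WNT4 (ENSG00000162552.15, chromosome 1, 22117313 to 22143969, minus strand), which acts through either branch and is best known from kidney and gonad development, was called in none of the comparisons of early LatB times. Its control 0 h libraries held 5.02, 7.31 and 7.55 CPM and its control 24 h libraries 8.47 and 8.92 CPM. LatB gave 5.79, 6.75 and 4.77 CPM at 3 h, 9.63, 7.61 and 7.59 CPM at 6 h, and 7.0 and 7.31 CPM at 12 h. The ranges of 3 and 12 h each overlapped that of control 0 h, whereas all 6 h libraries were above all control 0 h and all 3 h libraries. The log2 fold change was -0.20 at 3 h (SE 0.185, edgeR adjusted p = 0.454), 0.32 at 6 h (SE 0.183, edgeR adjusted p = 0.182) and 0.52 between 6 and 3 h (SE 0.184, edgeR adjusted p = 0.0585). At 24 h the LatB libraries held 4.54, 6.75 and 5.95 CPM, all below control 24 h (log2 fold change -0.60, SE 0.201).

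WNT5A (ENSG00000114251.15, chromosome 3, 55465715 to 55490539, minus strand), a ligand of the branch that acts on polarity and movement, had results that turned on 1 library. Control 0 h held 7.25, 5.56 and 6.07 CPM and control 24 h 5.76 and 6.70 CPM. LatB gave 3.90, 4.29 and 3.88 CPM at 3 h, 5.29, 5.11 and 5.26 CPM at 6 h, and 6.99, 5.06 and 5.22 CPM at 24 h. The 2 libraries of 12 h held 5.91 and 24.8 CPM, and the second of these is LatB 12 h replicate 2, with 732 WNT5A reads.

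All 3 h libraries of WNT5A, and all 6 h libraries, were below all of control 0 h. The rise at 12 h was 1.29 with both libraries (SE 0.378, edgeR adjusted p = 0.0169), although the groups overlapped, and -0.09 (SE 0.199, edgeR adjusted p = 0.775) without replicate 2. The difference between 12 and 6 h went from 1.56 (SE 0.381, edgeR adjusted p = 0.00836) to 0.18 (edgeR adjusted p = 0.613) in the same way. At 3 h the log2 fold change was -0.64 in both fits, with an edgeR adjusted p of 0.198 (SE 0.358) with that library and 0.00316 (SE 0.141) without it. With it left out, 4 of the 7 genes (WNT2B, WNT7B, WNT5A and WNT5B) were therefore called lower at 3 h, where 35.9% of 17139 genes were called. The other counts were then 2 at 6 h (background 46.2%), 1 at 12 h (30.7%), 2 between 6 and 3 h (27.0%) and 1 between 12 and 6 h (16.7%), and control 24 h had a background of 1.28%.

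WNT11 (ENSG00000085741.14, chromosome 11, 76186325 to 76210736, minus strand), another ligand of the polarity branch, was low throughout. WNT11 held 1.95, 2.14 and 1.78 CPM in control 0 h and 2.03 and 1.94 CPM in control 24 h. With LatB it held 1.60, 1.70 and 1.98 CPM at 3 h, 1.60, 1.55 and 1.41 CPM at 6 h, 1.66 and 1.35 CPM at 12 h, and 1.02, 1.53 and 1.3 CPM at 24 h. The libraries of 6, 12 and 24 h lay below all 5 control libraries, but no test was passed at 6 h (-0.37, SE 0.183, edgeR adjusted p = 0.126) or 12 h (-0.38, SE 0.207, edgeR adjusted p = 0.168, or -0.24 and 0.53 without LatB 12 h replicate 2). The 24 h log2 fold change was -0.62 (SE 0.201). Groups without overlap were common over all genes, as given above.

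WNT3 (ENSG00000108379.11, chromosome 17, 46762506 to 46833154, minus strand), a ligand of the beta-catenin branch, cannot be read from its own row. It was listed at 0 in 3 libraries, LatB 3 h replicate 3, LatB 6 h replicate 2 and LatB 24 h replicate 3, and at 40.9 to 159 reads in the others. A transcript of 3352 bases that matches no gene of GENCODE 44 held 103, 116 and 97 reads in those 3 libraries. The reads of WNT3 and of this transcript summed to a whole number, within 0.01 read, in all 16 libraries, including the 8 in which the WNT3 value was fractional. The next best of 4003 unmatched transcripts did so in 3 of those 8.

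**Figure D4:**
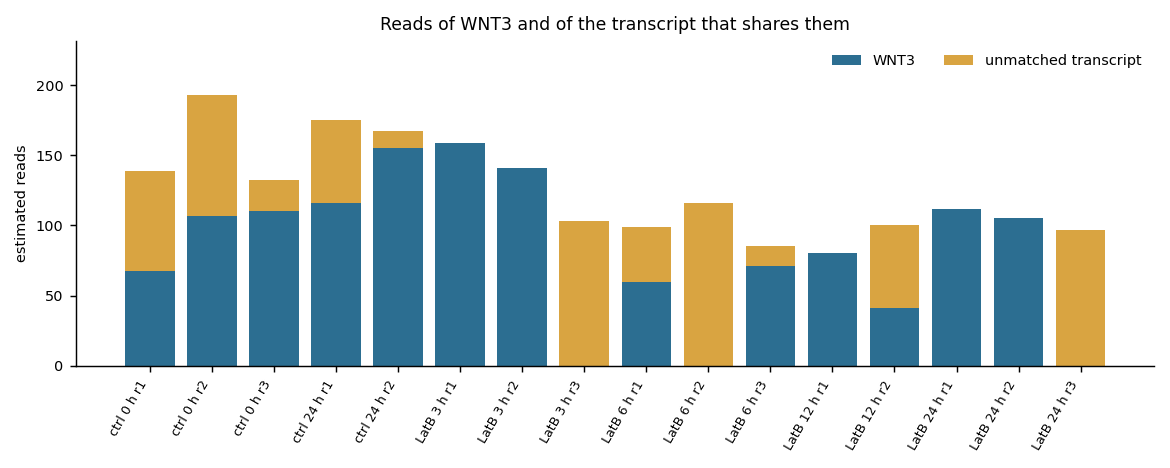
Estimated reads of WNT3 and of the unmatched transcript stacked for each of the 16 libraries, on a linear axis from 0. The division between the 2 differs from library to library, with WNT3 at 0 in 3 LatB libraries, while the stack runs from 80 to 193 reads.

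The summed value, chosen after the values were seen, gave a smoother course. The sums were 139, 193 and 132 reads in control 0 h, 175 and 167 in control 24 h, 159, 141 and 103 at 3 h, and 99, 116 and 85 at 6 h. At 12 h they were 80 and 100 reads, and at 24 h 112, 105 and 97. The sum was lower at 6 h (log2 fold change -0.59, SE 0.155, edgeR adjusted p = 0.00729) and at 12 h (-0.77, SE 0.177, edgeR adjusted p = 0.00434, called without LatB 12 h replicate 2 as well), and did not pass at 3 h (-0.36, SE 0.153, edgeR adjusted p = 0.0883). No fold change is given for WNT3 as deposited.

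WNT7A (ENSG00000154764.6, chromosome 3, 13816258 to 13880071, minus strand) and WNT10A (ENSG00000135925.9, chromosome 2, 218880852 to 218899581, plus strand), the latter known from hair and teeth, were near the limit of detection. WNT7A had 0 to 12 reads per library and WNT10A 1 to 55, and in each case 1 library alone had 10 reads or more. That library was LatB 12 h replicate 2. A count of 0 allows up to 3 reads, so a change of either gene was not detectable at this depth.

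At 24 h, the contrast on which the list was selected, WNT4, WNT5B, WNT7B and WNT11 had log2 fold changes between -0.62 and -0.60, next to -4.25 for WNT2B and -0.12 (SE 0.389) for WNT5A. The median of these 6 genes was -0.60, against 0.0081 for all genes tested. These values are a description, and nothing is read from them about the list.

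Summed over the 9 genes, WNT ligand transcripts amounted to 25.3 to 30.6 TPM in the control libraries and 13 to 26.7 TPM with LatB. The highest LatB value was that of LatB 12 h replicate 2, the other LatB libraries did not exceed 22.3 TPM, and the lowest was in a library where WNT3 was listed at 0. Over all 19 WNT ligand genes, where WNT2 adds most of the rest except in LatB 12 h replicate 2, the LatB ranges of 6 and 12 h overlapped those of the controls, with 35.5 to 40.2 TPM in the controls, 28.4 to 31.3 TPM at 3 h, 35.5 to 39.1 TPM at 6 h, 34.6 and 39.8 TPM at 12 h, and 25.5 to 32.4 TPM at 24 h. WNT2B made up 22.1, 24.5 and 31.0% of the sum over the 9 genes in control 0 h and 31.9 and 31.0% in control 24 h. The share was 15.4, 18.7 and 17.4% at 3 h, 10.9, 9.81 and 8.1% at 6 h, 5.45 and 9.25% at 12 h, and 5.4, 4.01 and 2.98% at 24 h.

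Of the 10 other WNT ligand genes, 6 passed the filter. WNT2, the closest relative of WNT2B, ran from 1.62 to 18 TPM and was not called at 3 h (0.71, edgeR adjusted p = 0.342), 6 h (1.19, edgeR adjusted p = 0.0859) or 24 h (1.34, edgeR adjusted p = 0.108), although in CPM all LatB libraries of 3 and 6 h lay above control 0 h. Its lowest value was in LatB 12 h replicate 2, and with that library left out it was called higher at 6 h (adjusted p = 0.00612) and 24 h (edgeR adjusted p = 0.0102). WNT16 was lower at all 4 times, by -3.41 (SE 0.757, edgeR adjusted p = 0.00368) at 3 h and -4.73 (SE 0.881, edgeR adjusted p = 0.000884) at 24 h, with at most 75 reads in a library. WNT8B was lower at 3 h (-1.40, SE 0.321, edgeR adjusted p = 0.00453) and WNT9A higher at 24 h (1.10, SE 0.238, edgeR adjusted p = 0.00252). The rise of WNT6 at 12 h (3.59, SE 0.854, edgeR adjusted p = 0.00534) was not called without replicate 2 (0.79, edgeR adjusted p = 0.513).

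The machinery that makes and reads WNT ligands was taken from lists of pathway genes. The counts of each list stand against 31.6% of all genes tested that were called at 3 h, 43.3% at 6 h, 35.8% at 12 h and 40.8% at 24 h (45.4% at 24 h with LatB 12 h replicate 2 left out). Among 5 genes for ligand acylation, export and matrix carriage, 1 rose at 6 h, 2 at 12 h and 1 at 24 h, and none was called lower in the fit with all libraries. WLS, the carrier that brings WNT ligands to the cell surface, rose by 0.39 at 6 h (SE 0.0699, edgeR adjusted p = 0.000505), 0.53 at 12 h and 0.35 at 24 h on the log2 scale. The rise of the glypican GPC3 at 12 h (0.64) was not called without LatB 12 h replicate 2.

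Of the 10 Frizzled receptor genes, 1 rose and 3 fell at 3 h, 2 rose and 4 fell at 6 h, 3 rose and 2 fell at 12 h, and 3 rose and 3 fell at 24 h, where 31.6%, 43.3%, 35.8% and 40.8% of all genes were called. FZD8 was lower at all 4 times, by -0.94 at 3 h (SE 0.211, edgeR adjusted p = 0.00386) and -1.49 at 24 h (SE 0.232, edgeR adjusted p = 0.000245). FZD2 fell at 3 h (-1.21, SE 0.0719, edgeR adjusted p = 1.24e-07) and 6 h (-0.44), and rose at 12 h (0.41) and 24 h (0.45). FZD7 fell at 3, 6 and 12 h (-0.74, -0.92 and -1.03), and FZD5 fell at 24 h (-1.23, SE 0.26, edgeR adjusted p = 0.00218). FZD6 rose at 3 and 6 h by 0.30 and 0.35, and FZD1 rose by 0.60 at 12 h and 0.56 at 24 h. Larger rises were those of FZD10 at 12 h (2.43, SE 0.739, edgeR adjusted p = 0.0207) and FZD9 at 24 h (1.83, SE 0.43, edgeR adjusted p = 0.00422). Without LatB 12 h replicate 2 the 12 h value of FZD10 was 0.99. Of 6 co-receptor and alternative receptor genes, LRP6 rose at 3 h (0.28), 6 h (0.23) and 24 h (0.21), and ROR2, the receptor of WNT5A, fell at 6 h (-0.49, SE 0.0947, edgeR adjusted p = 0.000986).

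Secreted and surface inhibitors moved both ways, with 11 of 14 genes tested. At 3 h 2 rose and 1 fell, at 6 h 1 rose and 2 fell, at 12 h 4 rose and 1 fell, and at 24 h 0 rose and 4 fell. DKK1, which blocks LRP5 and LRP6, rose by 1.27 at 3 h (SE 0.267, edgeR adjusted p = 0.00254) and 1.85 at 6 h (SE 0.267, edgeR adjusted p = 0.000104). SFRP5, a decoy that binds ligands, fell at 3 h (-0.43), 6 h (-0.28) and 24 h (-0.98). The rises of SFRP2 (1.87) and NOTUM (1.55) at 12 h were not called without LatB 12 h replicate 2.

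The R-spondin arm, whose receptors LGR4 to LGR6 protect Frizzled from the ligases RNF43 and ZNRF3, had 6 of 9 genes tested. At 3 h 4 rose and 1 fell, at 6 h 4 rose, at 12 h 3 rose, and at 24 h 2 rose and 2 fell. LGR5 rose by 1.90, 3.22, 3.67 and 3.82 at the 4 times (the highest edgeR adjusted p was 0.000233, at 3 h), and LGR6 by 1.94, 2.29 and 2.42 at 3, 6 and 12 h. RNF43 fell at 3 h (-0.58), and RSPO3 fell at 24 h (-0.68). LGR4 rose at 3 h (0.51) and 6 h (0.62) and fell at 24 h (-0.46).

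Genes for intracellular transduction numbered 17. At 3 h 5 rose and 5 fell, at 6 h 7 rose and 1 fell, at 12 h 2 rose, and at 24 h 3 rose and 1 fell. AXIN1, a scaffold of the complex that degrades beta-catenin, rose by 0.49 at 3 h and 0.44 at 6 h, and LEF1 fell at 3 h (-0.96, SE 0.192, edgeR adjusted p = 0.00184). CTNNB1, which encodes beta-catenin, rose by 0.28 at 12 h, and TCF7 rose by 0.99 at 24 h. Of 9 planar cell polarity genes, CELSR2 rose by 0.58 at 12 h and 0.69 at 24 h, and PRICKLE1 fell at 24 h (-0.78).

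Among feedback and target genes of beta-catenin, more were called higher than lower at each of the 4 times in the fit with all libraries. Of 13 genes, 5 rose and 2 fell at 3 h, 6 rose and 2 fell at 6 h, 6 rose and 1 fell at 12 h, and 7 rose and 2 fell at 24 h, against the same background of 31.6%, 43.3%, 35.8% and 40.8% of all genes called. That background takes calls in both directions together, so it is no measure of direction. The median log2 fold changes of the list were 0.13, 0.39, 0.36 and 0.85. SP5, a transcription factor induced by beta-catenin, rose by 2.12, 3.64, 4.49 and 3.71 at the 4 times (the highest edgeR adjusted p was 0.00537, at 3 h). MYC rose by 2.48 at 3 h (SE 0.26, edgeR adjusted p = 1.18e-05). AXIN2, a feedback gene of the list, was not called at 3 h (-0.27), 6 h (0.28) or 12 h (0.36) in the fit with all libraries. With LatB 12 h replicate 2 left out, AXIN2 was called lower at 3 h (-0.27) and higher at 6 h (0.28). Its 12 h value was then 0.74, which rests on 1 library of that time. AXIN2 was called higher at 24 h (0.85, SE 0.181, edgeR adjusted p = 0.0022). CCND1 fell by 0.69 at 6 h, 0.82 at 12 h and 0.35 at 24 h. LGR5, RNF43, ZNRF3, NOTUM, LEF1 and TCF7 stand in this list and in one described above. With LatB 12 h replicate 2 left out, the 12 h counts were 3 higher and 4 lower for Frizzled receptors, 2 and 3 for inhibitors, 4 and 0 for the R-spondin arm, 5 and 1 for intracellular transduction, 2 and 2 for planar cell polarity, and 8 and 1 for targets.

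The genes whose pattern was most like that of WNT2B over the 16 libraries were CAMK2D (Pearson r of log2 CPM 0.981), SNCAIP (0.974), GAS6 (0.971), ABTB1 (0.964) and MMP24 (0.964), among 16004 genes tested that have a symbol. The points share library and depth, and r is given as a description. For the other members the closest were weaker for WNT3 (P2RY8, 0.735) and WNT4 (PURA, 0.841), and between these and WNT2B for WNT5B (LEPROT, 0.907), WNT7B (ATP6V0A1, 0.948) and WNT11 (MST1P2, 0.904). The r of WNT3 was taken from its row as deposited, listed at 0 in 3 libraries, so it says little of that gene. The closest to WNT5A was COL5A2, a fibrillar collagen (0.972), and the highest WNT5A level was that of LatB 12 h replicate 2. Between members, WNT2B and WNT11 had r = 0.745.

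The upstream windows of the members were searched on both strands for 3 short motifs. Of the 9 genes, 7 had an entry among RefSeq promoters (GRCh38.p14), 10 windows of 250 bases in all. The TEAD motif GGAATG, the TCF/LEF motif CTTTGA and the CArG box, which the actin-responsive factor SRF binds, were found in 0 of the 10 windows, which include both WNT2B windows printed above. Over 35116 promoters of the same length, 11.9% held the TEAD motif, 11.2% the TCF/LEF motif and 1.16% the CArG box. The letters are not in these windows, and nothing follows for the factors.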

How the data were processed

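Salmon output for each of the 16 libraries was deposited by the authors, with estimated counts, TPM values and effective lengths of 177456 transcripts. The submitters' processing notes name Salmon 1.3.0, DESeq2 and hg38, whereas the study's methods describe STAR alignment and gene counts. Libraries were poly(A) selected, and strand use in counting is not given in the sources used here. Salmon divides reads among similar transcripts, which leaves genes that have close copies uncertain. A further deposited table holds the authors' comparisons, which were not used, nor were its 16 columns of per-sample values.

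GENCODE 44 gave the gene of each transcript, matched on its identifier whatever the version (165533 matched, 151923 with the same version), and 2.92 to 3.17% of reads were unmatched. The 35810 gene sums were rounded to whole counts. Tests used edgeR 4.0.16 in R 4.3.3, the two-sided quasi-likelihood test with all 6 groups in 1 fit, TMM scaling (factors 0.947 to 1.05) and filterByExpr by group, leaving 16705 genes. P-values were Benjamini-Hochberg adjusted over them, called under 0.05. CPM used TMM-scaled library sizes. The script was tested on simulated data. Alternatives used DESeq2 1.42.0 and limma 3.58.1, and the others are named with their effects.

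Groups came from the labels. The members and the pathway and marker lists were chosen with earlier results of these data known. Genes named were all members, the other ligands with 10 reads or more in a library, for each list and comparison up to 2 largest rises and 2 falls among called genes without overlap, the 5 genes most like WNT2B and the 2 most like each other member. A named gene can also have been called at times not given with it. Deviations from the group mean had r of -0.241 to 0.116 over 36 pairs of same-numbered libraries. Over 70 pairs with other numbers r was -0.137 to 0.241. With 2 or 3 libraries per group this cannot exclude pairing.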

Additional observations from a re-analysis of the deposited data

Results flagged for a closer look

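Several WNT ligand genes changed between successive LatB times by a test of the difference itself (edgeR's quasi-likelihood test, all 6 groups in the fit). WNT5B rose from 3 to 6 h by 0.754 on the log2 scale (adjusted p = 0.0126), higher in 3 of 3 libraries of 6 h than in any of 3 h. WNT7B went the other way over the same interval, at -0.596 (adjusted p = 0.013), and came back from 6 to 12 h by 1.22 (adjusted p = 0.00018). WNT5A differed between 12 and 6 h by 1.56 (adjusted p = 0.00836), a difference that was 0.176 (adjusted p = 0.613) without LatB 12 h replicate 2.

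The transcript that matched no gene and shares its reads with WNT3 held 103 reads in LatB 3 h replicate 3, 116 in LatB 6 h replicate 2 and 97 in LatB 24 h replicate 3. The highest value in a control library was 86.6 reads. These are the same 3 libraries in which WNT3 was listed at 0. No group had 4 libraries, so single libraries could not be tested for standing apart.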

How the results depend on the processing

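WNT2B was called lower under every alternative that gave a test. It was called in 18 of 18 at 3 h (-1.96 to -1.03, adjusted p up to 0.0175), 18 of 18 at 6 h (-2.49 to -1.46) and 16 of 16 at 12 h (-3.01 to -1.53). These alternatives bear on the processing only, as all drew on the data that led to the choice of WNT2B. At 24 h its value of -4.25 was -3.79 with an offset for transcript length, -2.65 and -3.65 with limma on log2(TPM + 1) and log2(TPM + 0.1), -3.60 against control 0 h, and -4.49 to -4.07 when 1 library was left out. The number of members called at 3 h, 2 of 7, was 1 without the low-count filter, with the replicate block, and at adjusted p under 0.01, and 4 with LatB 12 h replicate 2 left out, an alternative chosen after seeing the data. It was 1 to 1 in the leave-one-out fits. At 12 h, 2 became 1 with the length offset, with only the compared groups, in both limma fits and at 0.01, and 1 to 4 in the leave-one-out fits. Between 6 and 3 h, 2 became 4 with only the compared groups, 0 in both limma fits and at 0.01, and 1 to 3 in the leave-one-out fits. Between 12 and 6 h, 2 became 1 with only the compared groups and in both limma fits, and 1 to 4 in the leave-one-out fits. The cause of these moves was not tested.

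WNT7B was called at 6 h in 18 of 18 alternatives and between 12 and 6 h in 15 of 15, but at 3 h in 10 of 18 (adjusted p 0.000756 to 0.107). WNT5B between 6 and 3 h was called in 12 of 17, and WNT5A at 12 h in 10 of 16. Small values that were not called changed sign. WNT5A in control 24 h was 0.00544 without scaling and 0.00372 without the filter. WNT11 between 12 and 6 h was 0.0895 without scaling, 0.197 with the length offset, and 0.179 and 0.269 with limma. WNT4 over the same interval was 0.0893 with the offset, and 0.139 and 0.164 with limma. Against control 24 h in place of control 0 h, WNT4 was -0.072 at 6 h and -0.282 at 12 h, and WNT7B was -0.291 at 12 h. WNT3 with the unmatched reads was -0.0741 in control 24 h and -0.179 between 12 and 6 h. With 1 library left out, WNT11 ran from -0.171 to 0.126 between 12 and 6 h and from -0.0449 to 0.0814 in control 24 h, and WNT4 from -0.0538 to 0.211 at 12 h. WNT5A then ran from -0.0911 to 1.98 at 12 h and from -0.126 to 0.102 in control 24 h, and WNT5B from -0.67 to 0.132 at 12 h and from -0.174 to 0.118 in control 24 h.

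Whether the replicate numbers pair the libraries is not known, so the fit with the replicate block stands only as an alternative. Depth limits WNT7A, WNT10A and WNT16, and 2 libraries in control 24 h and LatB 12 h limit both groups.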
